A study of Mus musculus with 4 samples.

Results

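The Notch receptors, their ligands and the Fringe genes were described here as 10 genes chosen by name: the receptors Notch1, Notch2 and Notch3, the ligands Dll1, Dll3, Dll4, Jag1 and Jag2, and the glycosyltransferases Lfng and Mfng. All 10 were found among the 22690 genes of the table, and all 10 passed a filter of a mean normalized count of at least 10 that 14480 genes passed. The libraries hold RNA of C57BL/6 mouse retinal cells at postnatal day 2, sorted by flow cytometry for 4N DNA, so for cells between genome replication and division. Of the 2 groups, each with 2 libraries, one is GFP-negative cells labelled wild type and the other is GFP-positive cells labelled Casz1 cKO, a conditional knockout of the zinc finger factor Casz1. The GFP gate therefore changes together with the genotype, and their effects cannot be told apart. Not given in the sources used here: the Cre line, the source of GFP and the number of animals behind a library. The libraries are told apart by a tag in their column names, called A or B below, and each group has an A and a B library.

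Notch signalling passes between touching cells. A ligand on one cell pulls on a receptor on its neighbour, the receptor is cut by an ADAM protease and by gamma-secretase, and the released intracellular part joins the DNA-binding protein Rbpj to switch on genes such as Hes1 and Hes5. In the developing retina this keeps cells in the progenitor state, while cells about to leave the cycle express Delta-like ligands. Fringe enzymes add a sugar to the receptors, which favours Delta-like over Jagged ligands.

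Gene reads totalled 22326119 in cKO library A and 75832360 to 89473701 in the other 3 libraries. That shallow library also differed most from the rest, with Pearson's r of 0.902 to 0.918 to them over all tested genes, where the other 3 reached 0.988 to 0.993 among themselves. Casz1 itself had normalized counts of 13162 and 11995 in wild type A and B and of 8687 and 10772 in cKO A and B (limma, adjusted p = 0.771). These counts alone do not establish a loss of Casz1 in the cKO libraries. If only a part of the gene was deleted, a count over the whole gene would not measure it. Progenitor markers were abundant in all libraries, with summed normalized counts over 10 markers of 425869 and 420105 in wild type and 605914 and 466924 in cKO. Most of each sum was Ccnd1, at 223698 to 388895. The median log2 fold change of the 10 was 0.16, with 1 lower in cKO. Pax6 was lowest in cKO library A, at 35093, and highest in cKO library B, at 69539. None of the 10 was at 0 in any library, so the cells held the markers of their labelled tissue. Sums over 8 rod and cone precursor markers were 110652 and 105211 in wild type and 56999 and 75427 in cKO. In bulk RNA, fewer cells of a type and less RNA per cell cannot be told apart.

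The 3 stretches of promoter below are printed because they show how the control regions of an enzyme, a ligand and a receptor of the family differ in 2 short motifs. Each is the 250 bases before a RefSeq start, which can lie inside the longer GENCODE gene, on GRCm38.p6. They run 5′ to 3′ on the strand of the gene, with TGGGAA (or its reverse complement TTCCCA), the core that Rbpj recognizes, and CAGCTG, a palindromic E-box of a kind bound by proneural bHLH factors, in capitals. Lfng lies at chr5:140607091-140607340 on the plus strand, Dll1 (the upstream of its 2 starts) at chr17:15376933-15377182 on the minus strand and Notch1 at chr2:26503823-26504072 on the minus strand.
Lfng: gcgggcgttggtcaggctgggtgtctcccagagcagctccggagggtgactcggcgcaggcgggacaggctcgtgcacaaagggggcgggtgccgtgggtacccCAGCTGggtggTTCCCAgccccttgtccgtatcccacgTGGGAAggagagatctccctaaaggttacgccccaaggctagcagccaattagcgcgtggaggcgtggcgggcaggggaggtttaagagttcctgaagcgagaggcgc
Dll1: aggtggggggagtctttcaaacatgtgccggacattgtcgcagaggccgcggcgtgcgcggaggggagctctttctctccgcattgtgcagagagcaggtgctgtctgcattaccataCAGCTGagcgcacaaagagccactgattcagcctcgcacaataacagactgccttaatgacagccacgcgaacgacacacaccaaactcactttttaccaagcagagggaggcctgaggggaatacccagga
Notch1: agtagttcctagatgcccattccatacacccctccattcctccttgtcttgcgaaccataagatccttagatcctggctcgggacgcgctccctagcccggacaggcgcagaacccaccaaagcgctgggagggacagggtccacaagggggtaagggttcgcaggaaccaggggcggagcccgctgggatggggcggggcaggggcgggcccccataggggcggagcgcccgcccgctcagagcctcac
The Lfng stretch held the Rbpj core at 2 places, which began 135 and 108 bases before the start, and CAGCTG at 1 place. The Dll1 stretch held CAGCTG once and no Rbpj core, and the Notch1 stretch held neither. The 250 bases before the other, downstream start of Dll1, not printed, held neither motif, so the Dll1 result depends on the start chosen. RefSeq starts were matched for 9 of the 10 genes. Of those 9, 1 gene (Lfng) had TGGGAA on either strand within the 250 bases, and 4 had CAGCTG. Over all 32851 promoters of this length in the table, 21.6% held TGGGAA and 13.0% held CAGCTG. These shares are per promoter, whereas a gene of the 9 was counted if any of its starts had the motif. The 9 genes had 10 starts, so the measures are not quite alike. These are matches of letters in a window and not measured binding.

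Notch1 was by far the most abundant receptor, and its level was close in all 4 libraries. It had normalized counts (reads divided by 1 size factor per library) of 58257 in wild type A, 48058 in wild type B, 54207 in cKO A and 51291 in cKO B. Both cKO values lay between the wild-type ones. Wild type averaged 53157 ± 7212 (SD, n = 2), and cKO averaged 52749 ± 2062 (SD, n = 2). On the log2 scale cKO differed from wild type by -0.0050 (standard error 0.20), and limma over all genes gave an adjusted p = 0.992 with a 95% interval of -0.50 to 0.49. Notch1 is on chromosome 2, 26457903 to 26516663 of GRCm38, minus strand.

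Notch2, a receptor with a broad pattern in neural tissue, and Notch3, best known from vascular mural cells but also made by neural progenitors, were much lower and varied together. Notch2 (chromosome 3, 98013527 to 98150361, plus strand) had 3398 and 2716 in wild type A and B and 4110 and 3052 in cKO A and B. Notch3 (chromosome 17, 32120820 to 32166852, minus strand) had 2481 and 1653 in wild type A and B and 2981 and 1993 in cKO A and B. For both genes library A was above library B in each group, and cKO was above wild type within each tag, so that the groups overlapped. Between the groups Notch3 had a ratio of cKO to wild type of 1.20 for the A pair and 1.21 for the B pair, and that of Notch2 was 1.21 and 1.12. The log2 fold changes were 0.27 with a standard error of 0.30 for Notch3 (limma, adjusted p = 0.780) and 0.22 with 0.23 for Notch2 (adjusted p = 0.773). With a term for the tag, limma gave adjusted p = 0.655 for Notch3 and 0.701 for Notch2. The Notch3 value turned to -0.02 without cKO library A and to -0.025 without wild-type library B. It passed without cKO library B at 0.56 (limma, adjusted p = 0.0474), a fit in which 39.2% of all genes passed. Such a fit sets 1 library against 2, so the A to B difference enters it. Mural markers had a sum over 9 genes of 1255 and 1336 in wild type and 1218 and 1346 in cKO, mostly Pdgfrb at 829 to 998. The median log2 fold change of the 6 tested ones was -0.56, and Kcnj8, Tagln, Acta2, Anpep and Abcc9 were at 0 in cKO library A. Of these, Kcnj8 had only 2.28 and 0.69 in wild type, under the 2.79 that 1 read equals in cKO library A. It was at 0 in cKO library B too.

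**Figure D1:**
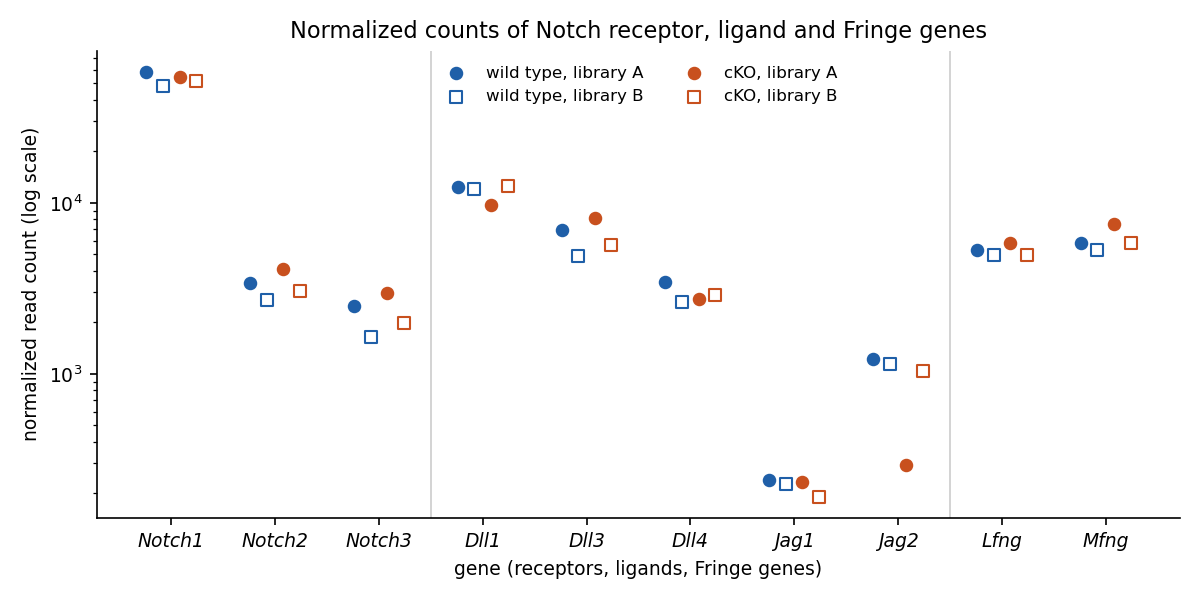
Normalized read count (log axis) of each gene in the 4 libraries, with receptors, ligands and Fringe genes separated by grey lines. Filled circles are libraries A, open squares are libraries B, blue is wild type and orange is cKO; Jag2 is the gene with 1 point far below the others, at 293 in cKO library A.

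Delta-like genes made up nearly all of the ligand level. Dll1, the main ligand of neurogenic cells (chromosome 17, 15367354 to 15376872, minus strand), had 12308 and 12098 in wild type A and B and 9765 and 12489 in cKO A and B. Only cKO library A was low, and cKO library B was above both wild-type libraries. Dll1 had a log2 fold change of -0.14 (standard error 0.20; limma, adjusted p = 0.802), made of -0.33 within tag A and 0.05 within tag B.

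Dll3, a divergent family member that acts inside the cell and does not activate receptors on neighbours, followed the libraries in another way. Dll3 (chromosome 7, 28293553 to 28302238, minus strand) had 6974 and 4913 in wild type A and B and 8153 and 5695 in cKO A and B. The A libraries were the high ones in both groups, with an A to B ratio of 1.42 in wild type and 1.43 in cKO. From wild type to cKO the ratio was 1.17 in the A pair and 1.16 in the B pair. Because the A to B difference was larger than the difference between the groups, the groups overlapped, and the log2 fold change of 0.22 had a standard error of 0.27 (limma, adjusted p = 0.790). It turned to -0.040 without cKO library A. With a term for the tag, limma gave Dll3 an unadjusted p of 0.271 and an adjusted p = 0.692.

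Dll4, a ligand of newly committed retinal cells and of endothelial tip cells (chromosome 2, 119325784 to 119335962, plus strand), had 3426 and 2640 in wild type A and B and 2752 and 2887 in cKO A and B. Both cKO values again lay inside the wild-type range. For Dll4 the log2 fold change came to -0.09 (standard error 0.21; limma, adjusted p = 0.871). The 10 endothelial markers were split. In cKO library A, 6 were at 0 (Eng, Emcn, Tie1, Tek, Pecam1 and Cdh5), among them Pecam1 with 84.3 and 59.4 in wild type and 42.3 in cKO B, and Cdh5 with 8.35 and 23.5 in wild type and 8.59 in cKO B. The other 4 were highest in cKO library A: Kdr, Cldn5 (771 and 675 in wild type, 883 and 639 in cKO), Egfl7 (585 and 534, then 805 and 612) and Esam. Of the 6 at 0, Emcn and Tie1 each had only 2.28 and 2.07 in wild type A and B. That is under the 2.79 that 1 read equals in cKO library A, so a 0 there says little. The sum over the 10 was 44061 and 39085 in wild type and 50097 and 40034 in cKO, nearly all of it Kdr, which had 37659 to 48371, and their part in the Dll4 values was not tested.

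The Jagged ligands were low, and Jag2 held the largest difference of the family. Jag2 (chromosome 12, 112907819 to 112929776, minus strand) had 1223 and 1149 in wild type A and B, 293 in cKO A and 1039 in cKO B. It was the only gene of the 10 whose groups did not overlap, with both cKO values below both wild-type values; this order held for 22.3% of all tested genes, and no overlap in either direction for 39.5%. The value of cKO library A rests on 105 reads, and its exact 95% Poisson interval of 240 to 355 covers counting error only. In cKO library B Jag2 stood at 87.6% of the wild-type mean, and in cKO library A at 24.7%. Of the 2265 tested genes with a wild-type mean within 1.5 times that of Jag2, 58 (2.56%) were at or below the same share in cKO library A, and 37 (1.63%) of them also had cKO library B below both wild-type libraries.

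The log2 fold change of Jag2 was -1.10 with a standard error of 0.59 and a 95% interval of -2.56 to 0.36 (limma, adjusted p = 0.771). Without cKO library A it was -0.19 (limma, adjusted p = 1.00). Leaving out cKO library B made it pass at -2.01 (limma, adjusted p = 2.22e-07), in a fit that takes the spread of the single cKO library from wild type. Within tags the log2 ratio was -2.06 at A and -0.15 at B. With a term for the tag, limma gave Jag2 an unadjusted p of 0.0186 and an adjusted p = 0.427. In that fit 1 of the 10 genes and 1375 of all 14480 had an unadjusted p under 0.05, against 274 of all without the term. Microglial markers were also lowest in cKO library A, where their sum over 12 genes was 1383 and Aif1 was at 0. Their sum was 9267 in cKO library B and 21911 and 20387 in wild type, so it was well below wild type in both cKO libraries. Sums of mural, rod and cone precursor, ganglion cell and lens markers were lowest in cKO library A as well. Other lists were split. Of the 7 tested endothelial markers, Eng, Pecam1 and Cdh5 were at 0 there, and Kdr, Cldn5, Egfl7 and Esam were highest there. Of the astrocyte markers, Pax2 and S100b were lowest there, and Pdgfra, Gfap and Aldh1l1 were not. Onecut1, Onecut2, Prox1 and Gad1 were lowest there too, but Slc32a1, Ptf1a, Tfap2a and Tfap2b of the same list were not. The part of any of these cells in the Jag2 value was not tested. Jag1 (chromosome 2, 137081456 to 137116644, minus strand) was the lowest of the 10, with 241 and 227 in wild type A and B and 232 and 192 in cKO A and B. Its 83 reads in cKO library A give an exact Poisson interval of 185 to 287, which holds the values of all 4 libraries. The log2 fold change of Jag1 was -0.15 with a standard error of 0.34 (limma, adjusted p = 0.876).

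The pair of Fringe genes lay close to each other in level. Lfng (chromosome 5, 140607320 to 140615545, plus strand) had 5319 and 4976 in wild type A and B and 5856 and 4945 in cKO A and B. Mfng (chromosome 15, 78755882 to 78773475, minus strand) had 5838 and 5323 in wild type A and B and 7527 and 5790 in cKO A and B. The cKO library A was the highest of the 4 for both, and the groups overlapped for both. The log2 fold change of Mfng was 0.24 with a standard error of 0.20 (limma, adjusted p = 0.771), against 0.06 with 0.18 for Lfng (adjusted p = 0.898). Without cKO library A these became 0.05 for Mfng and -0.06 for Lfng.

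No gene of the family passed in limma: 0 of 10 had an adjusted p under 0.05, as did 0.0% of the 14480 genes tested, and 0 of 10 had an unadjusted p under 0.05, against 1.89% of all. On recovered reads edgeR and DESeq2 also called 0 of the 10, with 0 at an unadjusted p under 0.05 in either; over all genes they called 0.0% and 0.00691%. The median log2 fold change of the 10 was 0.03, beside -0.03 over all tested genes. By sign, 5 were higher and 5 lower in cKO, as were 46.7% and 53.3% of all tested genes, and equalizing the library medians made this 6 and 4 by turning Notch1 to 0.09. Within both tags 4 genes were higher in cKO (Notch2, Notch3, Dll3 and Mfng; 32.7% of all tested genes) and 2 lower (Jag1 and Jag2; 36.6% of all). The other 4 went in opposite directions at the tags, which 30.7% of all genes did. The limma intervals are wide: apart from Jag2, their ends ran from -0.99 for Jag1 to 1.02 for Notch3, so a change of up to these sizes cannot be told from none with 2 libraries a group. In the authors' deposited table the lowest p-value among the 10 was 0.420, for Jag1. The adjusted p-values of the authors' deposited table were under 0.05 for 51 of 17477 genes, and the lowest among the 10 was 0.99988.

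**Figure D2:**
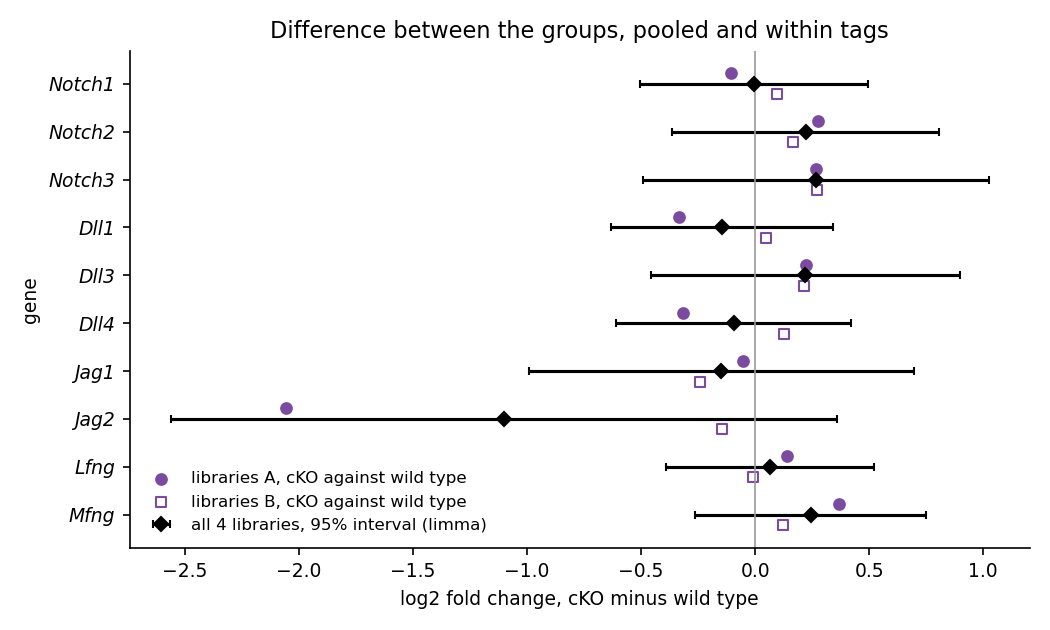
Log2 fold change of each gene, cKO minus wild type: diamonds with bars are the limma estimate over 4 libraries with its 95% interval, filled circles the ratio at tag A and open squares the ratio at tag B. All 10 intervals cross 0; the 2 tags lie together for Notch3 (0.26 and 0.27) and far apart for Jag2 (-2.06 and -0.15).

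The A and B libraries of a group also differed from each other. All 10 genes were higher in wild-type library A than in wild-type library B, where 49.4% of all tested genes were. The log2 difference ran from 0.02 for Dll1 to 0.59 for Notch3, with a median of 0.21 beside -0.0037 over all genes. The order was not particular to these 10. It also held for 32 of the 46 other pathway genes, with a median of 0.12. Among those were 5 of the 5 other receptors, ligands and Fringe genes, with a median of 0.25. In cKO, 7 of the 10 were higher in library A than in B (46.3% of all genes); Dll1, Dll4 and Jag2 were the exceptions. These 7 were thus higher in A in both groups, as were 29.5% of all genes and 19 of the 46 other pathway genes. Notch3 and Dll3 had nearly the same A to B difference in each group, 0.59 and 0.58 for Notch3 and 0.51 and 0.52 for Dll3. With each gene centred on its mean over the 4 libraries, this pair was the closest of all pairs in the family, at a distance of 0.09 on the log2 scale.

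Ganglion cell markers went the other way between the tags, with a median log2 difference of A minus B of -0.62 in wild type and -0.93 in cKO over 8 genes, and sums of 5147 and 7111 in wild type A and B and 4367 and 7962 in cKO A and B. Their part in the A to B difference was not tested. Markers of neurogenic precursors, the cells that make Delta-like ligands, had medians of 0.13 and 0.05 over 12 genes, and those of progenitors 0.01 and 0.23 over 10 genes. All 5 retinal astrocyte markers were higher in library A in wild type, with a median of 0.64. In cKO their median was 0.16 and they were split. Pdgfra, Gfap and Aldh1l1 were higher in A, while Pax2 (11.2 in A and 76.7 in B) and S100b (0 and 35.0) were lower. Endothelial markers had 0.17 and 0.32 over 7 tested genes, but in cKO they too were split. Kdr, Cldn5, Egfl7 and Esam were higher in A, while Eng, Pecam1 and Cdh5 were at 0 in A and at 26.4, 42.3 and 8.59 in B. The part of these cells in the A to B difference was not tested either. No label says what the tags stand for, and these differences between single libraries carry no test.

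**Figure D3:**
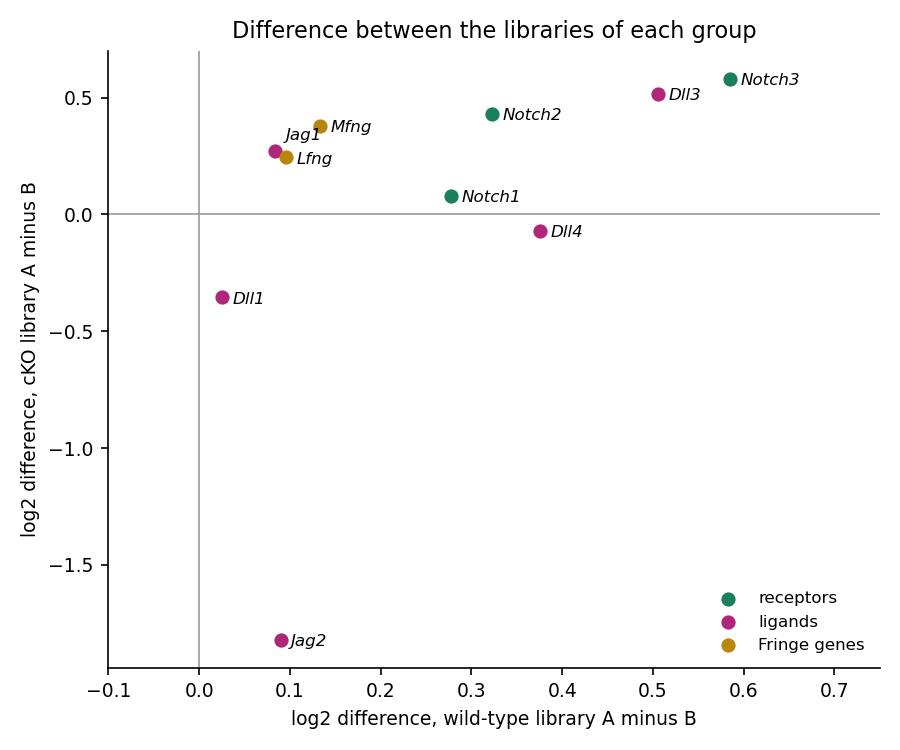
Log2 difference between library A and library B of each gene, in wild type on the horizontal axis and in cKO on the vertical axis, coloured by role. All 10 points lie right of 0, from 0.02 for Dll1 to 0.59 for Notch3; Notch3 and Dll3 lie at the upper right, and Jag2 is far below at -1.82 on the cKO axis.

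Levels can be compared between genes only per length, so counts were divided by the kilobases of merged exons of each gene. On this scale Notch1 came first in all 4 libraries, with 3735 ± 507 (SD, n = 2) normalized counts per kilobase in wild type, against 3706 ± 145 (SD, n = 2) for cKO. Dll1 followed with 2892 ± 35.3 (SD, n = 2) per kilobase in wild type, against 2637 ± 457 (SD, n = 2) for cKO. Next came Dll3, Mfng and Lfng, with wild-type means of 2085, 1966 and 2055 per kilobase. The ranges of Dll1, Dll3, Mfng and Lfng overlapped from each to the next, so their order is not set by these libraries. Dll4 stood apart below them at 787 ± 144 (SD, n = 2) per kilobase in wild type.

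Below Dll4 the per-kilobase levels dropped further. Notch2 had 284 ± 44.7 (SD, n = 2) per kilobase in wild type and Notch3 had 256 ± 72.4 (SD, n = 2), and these neighbours overlapped in range although Notch2 was the higher in 4 of 4 libraries. Jag2 had 170 ± 7.50 (SD, n = 2) per kilobase in wild type and Jag1 40.1 ± 1.65 (SD, n = 2). In cKO library A, Jag2 came down to 42.1 per kilobase, next to the 39.8 of Jag1. With the longest transcript as the length, Mfng moved from the fourth to the second place by its mean over the 4 libraries. It was above Dll1 in 1 of the 4, cKO library A, and its wild-type mean of 2992 was below the 3408 of Dll1. Notch3 and Jag2 overlapped in range with this length.

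Within the receptors and the ligands 1 kind of gene dominated. Notch1 made up 86.8% and 88.1% of the per-kilobase level of the 3 receptors in wild type A and B, and 83.6% and 87.2% in cKO A and B. Delta-like genes together made up 96.6% and 96.3% of the ligand level in wild type and 98.6% and 96.9% in cKO. Between Dll1 and Dll3 the balance differed by library: Dll1 held 45.1% and 52.3% of the ligand level in wild type A and B and 38.8% and 50.3% in cKO, and Dll3 held 37.8% and 31.5% and then 47.9% and 33.9%. Dll3 was ahead of Dll1 in cKO library A alone. Lfng had 50.8% and 51.4% of the sum of Lfng and Mfng in wild type A and B and 46.9% and 49.2% in cKO. This balance depends on the length used: per kilobase of the longest transcript Lfng had 2308 and 2159 in wild type and Mfng 3130 and 2854.

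**Figure D4:**
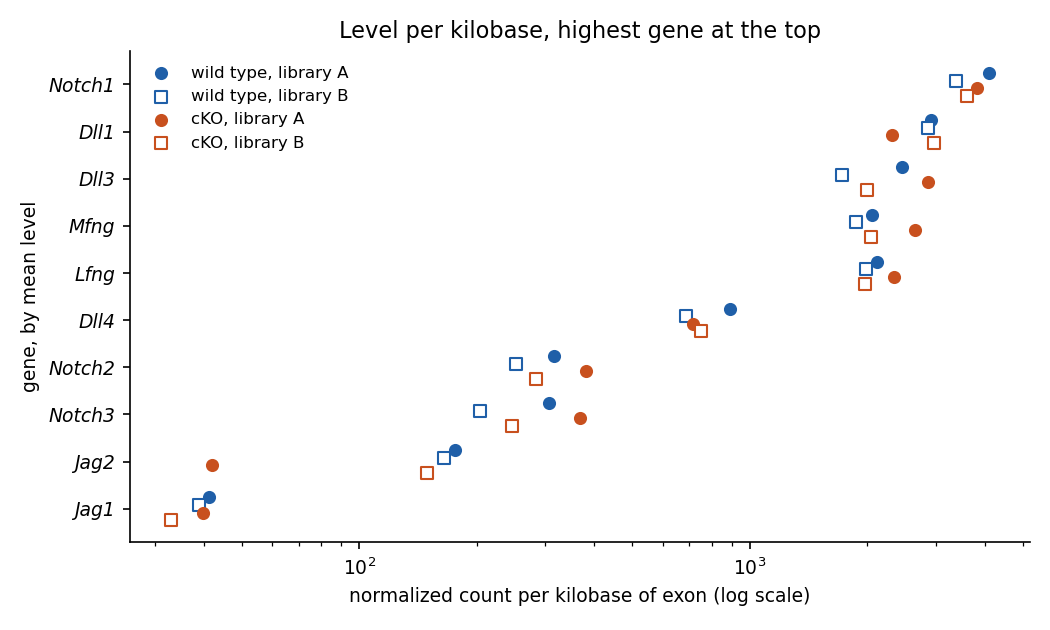
Normalized count per kilobase of merged exon (log axis) in the 4 libraries, with the genes ordered by mean from the top. Notch1 is highest throughout, Dll1, Dll3, Mfng and Lfng share one range, and Jag1 is lowest at 32.9 to 41.3.

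The genes closest in pattern were sought for the most abundant receptor, ligand and Fringe gene, by the distance between log2 values over the 4 libraries after centring, among 11815 genes with a mean of at least 100. For Notch1 these were Ltbr, a receptor of the TNF receptor family, at 0.01, Dbp, a clock-controlled transcription factor, at 0.01, and the zinc finger gene Zfp628 at 0.02. For Dll1 they were Camk1d, a calcium-dependent kinase, at 0.02, Plod2, a collagen lysyl hydroxylase, at 0.02, and the kinase Map4k4 at 0.03. Those of Mfng were Atmin at 0.02, the myosin light chain Myl6b at 0.02 and Azin1, an antizyme inhibitor, at 0.02. With 4 libraries a match this close says only that the values run in parallel.

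Of the rest of the pathway, 46 genes in 6 lists, 0 passed in limma and 0 had an unadjusted p under 0.05; edgeR and DESeq2 called 0 as well, with 2 at an unadjusted p under 0.05 in DESeq2, where 369 of the 14480 genes had one. Their median log2 fold change was -0.04, with 20 higher and 26 lower. Beside the 10, Dner, a neural transmembrane protein with EGF repeats that is described as a Notch ligand, had 3814 and 3201 in wild type A and B and 5990 and 4340 in cKO A and B. Both cKO values were above both wild-type ones, as for 17.2% of all genes, and its log2 fold change was 0.55 (standard error 0.23; limma, adjusted p = 0.771). Rfng, the third Fringe gene, had 3258 and 2802 and then 2716 and 2812, a log2 fold change of -0.13.

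Among receptor maturation and cleavage genes 4 of 12 had values above 0, around a median of -0.04. Ncstn, the gamma-secretase subunit nicastrin, had a log2 fold change of -0.04, and so did Adam10, the protease of the first cut. All 4 ligand ubiquitination genes had values below 0, as did 53.3% of all tested genes, with a median of -0.20. Only 1 of the 4 was lower within both tags, and the median was -0.38 at A and 0.03 at B. Mib1, the E3 ligase that makes ligands active, had -0.25 and Mib2 -0.14. For trafficking and turnover genes the median was -0.12, and 3 of 9 had values above 0. In that list Dtx4 had 0.23 and Dtx3, whose values were 10189 and 15808 in wild type and 6365 and 12545 in cKO, had -0.51. In the nuclear complex 4 of 10 genes had values above 0 and the median was -0.09, with Rbpj at 0.08.

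Of these 6 lists, targets were the one with every value above 0: 6 of 6 were higher in cKO, with a median of 0.26, and 46.7% of all tested genes were. Hes5, a repressor that keeps progenitors undifferentiated, had 22258 and 30301 in wild type A and B and 30257 and 35430 in cKO A and B. Hes1, its relative, had 9841 and 12647 in wild type and 16803 and 14474 in cKO, so that its groups did not overlap, an order that 2 of the 6 targets and 17.2% of all tested genes showed. The log2 fold changes were 0.33 with a standard error of 0.23 for Hes5 (limma, adjusted p = 0.771) and 0.48 with 0.21 for Hes1 (adjusted p = 0.771). The list median was 0.50 within tag A and 0.04 within tag B. Without cKO library A, 3 of the 6 were higher, with a median of 0.02, and leaving out cKO library B instead gave 0.53 and 3 of the 6 passed in limma, where 39.2% of all genes did. Progenitor markers had medians of 0.25 (A) and 0.13 (B), and their part in the target values was not tested.

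**Figure D5:**
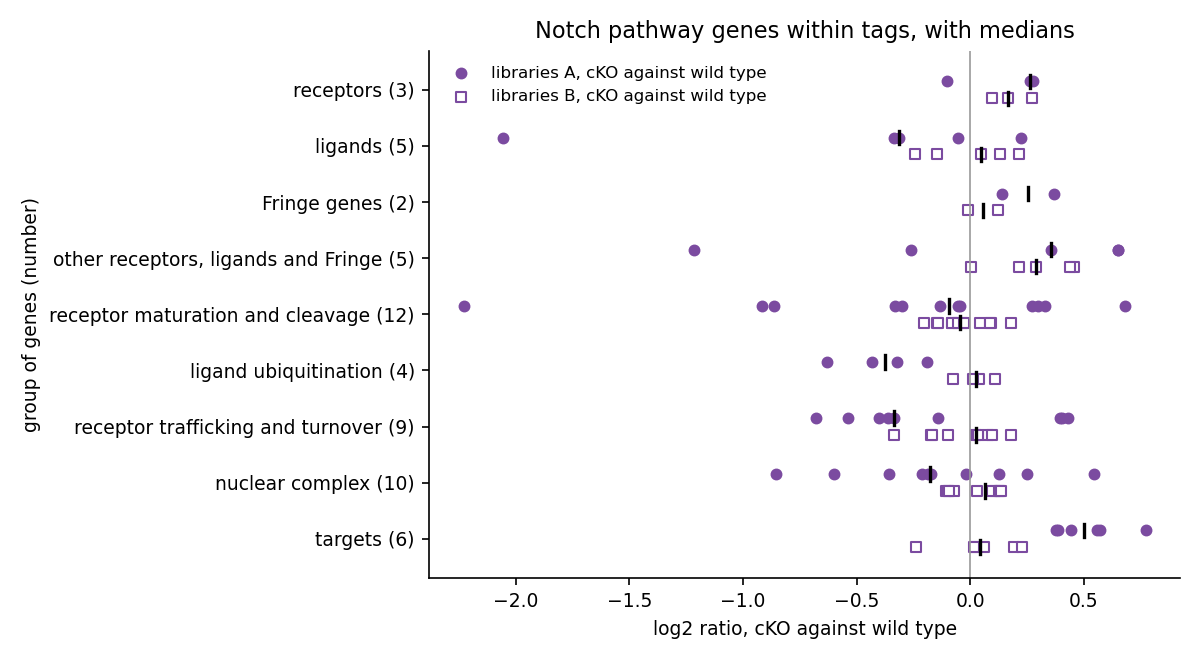
Log2 ratio of cKO to wild type at tag A (filled circles) and tag B (open squares) for every gene of 9 Notch pathway groups, with the median of each set as a black bar. At tag A the targets have a median of 0.50 and ligand ubiquitination genes one of -0.38, while at tag B the medians of these groups are 0.04 and 0.03.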

How the data were processed

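Sequenced were 4 libraries of sorted retinal cells. The submitters' processing notes name FastQC, TopHat, HTSeq, DESeq and mm10; versions, settings and strand handling were not given in the sources used here. The deposited signal is a normalized count per gene: the authors divided reads by a size factor for each library, since 100% of values were whole multiples of 1 read within 0.01 reads. The p-values and adjusted p-values quoted as the authors' come from the deposited table. Because replicate 2 stands above both cKO columns, they were tied to their group alone. limma was run on log2(normalized count + 1) of genes averaging 10 or more (moderated, two-sided, mean-dependent prior; 2 residual degrees of freedom before moderation) and Benjamini-Hochberg adjustment at 0.05 over all tested genes. The pseudocount understates changes of low genes. In cKO library A 3 reads equal a normalized count of 8.38, elsewhere 1.98 to 2.28. The labels call the libraries replicates and the design text speaks of 2 independent experiments, which it does not tie to libraries, so p-values measure the spread between these samples.

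Alternatives were other pseudocounts and filters, equal library medians, no trend, edgeR and DESeq2 on recovered reads, a tag block and leaving out each library. The genes, lists and tests were chosen with earlier results of these data known. Named are the 10 genes, in each pathway list those that passed or the 2 with the highest mean, the 3 genes closest in pattern to 3 of the 10, and Casz1. A gene that this rule names is not reported here. Single marker genes beside a result were picked after their values were seen. Casz1, whose deletion the groups are labelled by, had a log2 fold change of -0.38. Further median log2 fold changes of marker lists were -0.06 for amacrine and horizontal cells, -0.68 for retinal astrocytes and -2.32 for lens (1 gene tested). GENCODE M21 (GRCm38) gave coordinates and exon lengths for 96.1% of the identifiers. Exons of Notch1, Notch3, Dll1 and Dll4 overlap antisense genes there, and without a stated strand setting reads of both cannot be told apart. The software was R 4.3.3, limma 3.58.1, edgeR 4.0.16, DESeq2 1.42.0 and Python 3.11.15. The tests were tried on simulated data first.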

Additional observations from a re-analysis of the deposited data

How the results depend on the processing

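The count of genes passing in limma (0 of all, 0 of the 10) stayed at 0 with both other pseudocounts, both other filters, equal medians, no trend and edgeR. DESeq2 called 1 gene of all. Over left-out libraries the count ranged from 0 to 5662 of all genes (76 without cKO library A, 5662 without cKO library B) and from 0 to 2 of the 10 (Notch3 and Jag2, without cKO library B). What the tags share is not labelled; libraries of 1 tag deviated from their group means with r = 0.258 across genes. With the replicate block limma called 0 genes of all and 0 of the 10, edgeR (an alternative chosen after seeing the data, as was blocked DESeq2) 0 and 0, and DESeq2 43 and 0; the cause was not tested. Of 150 alternative fold changes of the 10 genes 136 kept direction and side of the threshold, 2 newly passed and 12 changed sign. Notch1 became 0.088 with equal medians, 0.0025 in blocked edgeR and 4.09e-05 in blocked DESeq2. Over left-out libraries the log2 fold change ranged from -0.14 to 0.13 for Notch1, -0.025 to 0.56 for Notch3, -0.32 to 0.033 for Dll1, -0.040 to 0.48 for Dll3, -0.28 to 0.094 for Dll4 and -0.057 to 0.19 for Lfng. Notch2, Jag1, Jag2 and Mfng kept their sign in every alternative. The lower depth of cKO library A, 22326119 reads, limits what low genes such as Jag1 can show.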

Other observations

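The 46 other pathway genes moved further at tag A than at tag B: the median absolute log2 ratio of cKO to wild type was 0.38 at A and 0.10 at B, beside 0.44 and 0.11 over all tested genes and 0.27 and 0.14 over the 10 receptors, ligands and Fringe genes. Notch4, the receptor best known from endothelium and no member of the 10, had 526 and 487 in wild type A and B and 673 and 565 in cKO A and B, so that its groups did not overlap, with cKO higher as for 17.2% of all tested genes (limma, adjusted p = 0.771). Of the 10 endothelial markers 6 were at 0 in cKO library A and the other 4 were highest there. Emcn and Tie1, of those 6, had wild-type values under the count that 1 read equals in that library. The part of endothelial cells in the Notch4 value was not tested. Pofut1, the enzyme that adds the fucose which Fringe enzymes extend, had 4675 and 3532 in wild type and 2478 and 3343 in cKO, a log2 fold change of -0.50 (limma, adjusted p = 0.771). Both were singled out after their values were seen.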
